A study of Mus musculus with 4 samples.

Results

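The genes described here are 10 of the 40213 gene symbols in the data: Slc31a1, Slc31a2, Atp7a, Atox1, Ccs, Sod1, Cox17, Sco1, Sco2 and Commd1. They were chosen by symbol for their part in moving copper through the cell, with earlier results of these data known. All 10 passed the filter on low values that left 11588 genes for testing. The libraries came from RAW264.7, a mouse macrophage cell line. Cells that had attached were kept with the material for 48 h. The titles give 2 libraries labelled Gel and 2 labelled CuNZ@Gel. CuNZ is not spelled out in the labels, and Gel is taken to be the same hydrogel lacking it. The treatment text mentions CuNZ@Gel only, so what the Gel wells received rests on the titles. The question is which transcripts differ once the gel carries CuNZ. Nothing in the labels says that the 2 libraries of a group were separate cultures, so every p-value here reflects library-to-library spread only, and that spread may be technical.

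Copper enters cells through the permease CTR1, is handed from protein to protein by small chaperones, and leaves through P-type ATPases. ATOX1 feeds the ATPases of the Golgi, CCS loads the cytosolic superoxide dismutase SOD1, and COX17, SCO1 and SCO2 pass copper to cytochrome c oxidase in mitochondria. In macrophages ATP7A is also known for moving copper to phagosomes, where it takes part in killing bacteria. Free copper ions are toxic, and cells are known to control the import and export proteins largely by moving and degrading them, which RNA levels do not show.

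The recovered library totals were 13718000 to 14881000 reads. All 8 macrophage markers were at 1 scaled CPM or more in every library, and their summed level was 5590 to 5760 in Gel and 8880 to 9120 in CuNZ@Gel. Scaled CPM are CPM divided by 1 further factor per library. The marker lists of fibroblasts, T cells, epithelial cells and endothelial cells each summed to at most 1.09 scaled CPM in Gel and 2.65 in CuNZ@Gel, and Cd3e and Cd3g were listed at 0 throughout. The endothelial list, in which Pecam1 alone passed 1 scaled CPM, summed to 0.0725 to 0.155 in Gel and 1.84 to 2.65 in CuNZ@Gel. The part of these marker differences in the results below was not tested. The group difference was wide over the whole transcriptome: 67.1% of the tested genes passed an adjusted p of 0.05 by limma, 32.2% raised and 34.8% lowered in CuNZ@Gel. In such bulk RNA, fewer cells that express a gene and less RNA per cell cannot be told apart.

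Because the transporters and the chaperone ATOX1 carried the changes described first, the 250 bases before the start of their genes are shown, 5′ to 3′, from RefSeq on build GRCm38.p6. Capitals mark matches to the core of the metal response element (TGCGCNC or TGCACNC) or of the antioxidant response element (TGACNNNGC), on either strand. No marked match overlapped another, and the Slc31a1 window held none.
Slc31a1, chr4:62360451-62360700, plus strand: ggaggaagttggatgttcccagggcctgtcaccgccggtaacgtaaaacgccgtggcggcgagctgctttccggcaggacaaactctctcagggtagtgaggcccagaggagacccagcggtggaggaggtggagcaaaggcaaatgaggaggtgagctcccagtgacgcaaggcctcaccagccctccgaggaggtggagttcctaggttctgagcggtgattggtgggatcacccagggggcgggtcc
Slc31a2, chr4:62286179-62286428, plus strand: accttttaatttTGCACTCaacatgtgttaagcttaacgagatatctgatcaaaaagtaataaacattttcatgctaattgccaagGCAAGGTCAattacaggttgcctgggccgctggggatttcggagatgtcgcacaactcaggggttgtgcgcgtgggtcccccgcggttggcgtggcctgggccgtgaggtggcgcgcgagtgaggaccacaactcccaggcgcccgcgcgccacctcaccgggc
Atp7a, chrX:106026974-106027223, plus strand: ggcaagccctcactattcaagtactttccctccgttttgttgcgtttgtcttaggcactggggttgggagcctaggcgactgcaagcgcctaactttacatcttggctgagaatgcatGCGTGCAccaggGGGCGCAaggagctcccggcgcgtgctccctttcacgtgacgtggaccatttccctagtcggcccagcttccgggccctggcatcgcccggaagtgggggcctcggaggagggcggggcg
Atox1, chr11:55461209-55461458, minus strand: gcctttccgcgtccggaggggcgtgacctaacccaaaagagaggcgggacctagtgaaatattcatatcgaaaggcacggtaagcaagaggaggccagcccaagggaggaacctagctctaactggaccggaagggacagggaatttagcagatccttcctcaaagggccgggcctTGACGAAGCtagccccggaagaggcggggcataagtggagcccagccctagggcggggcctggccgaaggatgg
The metal response element is bound by MTF1, the zinc-sensing factor that drives metallothionein genes, and the antioxidant element by NRF2 with a small MAF protein. RefSeq promoters were found for 8 of the 10 genes. The metal element core was present before the starts of 3 of these, Slc31a2, Atp7a and Commd1, and in 21.5% of 32536 promoter windows of the same length. The Atp7a window held it at 2 places, from -132 to -126 and from -120 to -114 bases relative to the start, both on the opposite strand. The antioxidant core was present for 4 genes, Slc31a2, Atox1, Sod1 and Commd1, and in 10.2% of all windows. Commd1 was read at 2 start sites, and its antioxidant matches lay before start site 2 alone. Counts by gene and shares by window are therefore not in the same unit. A GC box (GGGCGG), the site of SP1-family factors, was present for 6 genes, all but Slc31a2 and Commd1 among the 8, and in 33.0% of all windows; in the Sod1 window GC boxes overlapped each other. These matches describe letters and do not show that a factor bound there.

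Of the 10 genes, 9 passed the test, against 67.1% of all tested genes. Raised were 4 (32.2% of all genes) and lowered 5 (34.8% of all genes). The median log2 change of the 10 was -0.17, against -0.03 over all tested genes. The groups did not overlap for any of the 10, as for 83.2% of all tested genes. No excess over the transcriptome is read from these counts. Log2 changes are on the log2(scaled CPM + 1) scale. With libraries scaled by total reads only, the median of all genes moved up by 0.18, and 4 of the 10 were raised and 1 lowered. Under that scaling 68.1% of all genes were called, 43.4% raised and 24.7% lowered, so that the raised share of all calls went from 48.1% to 63.7%.

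**Figure D1:**
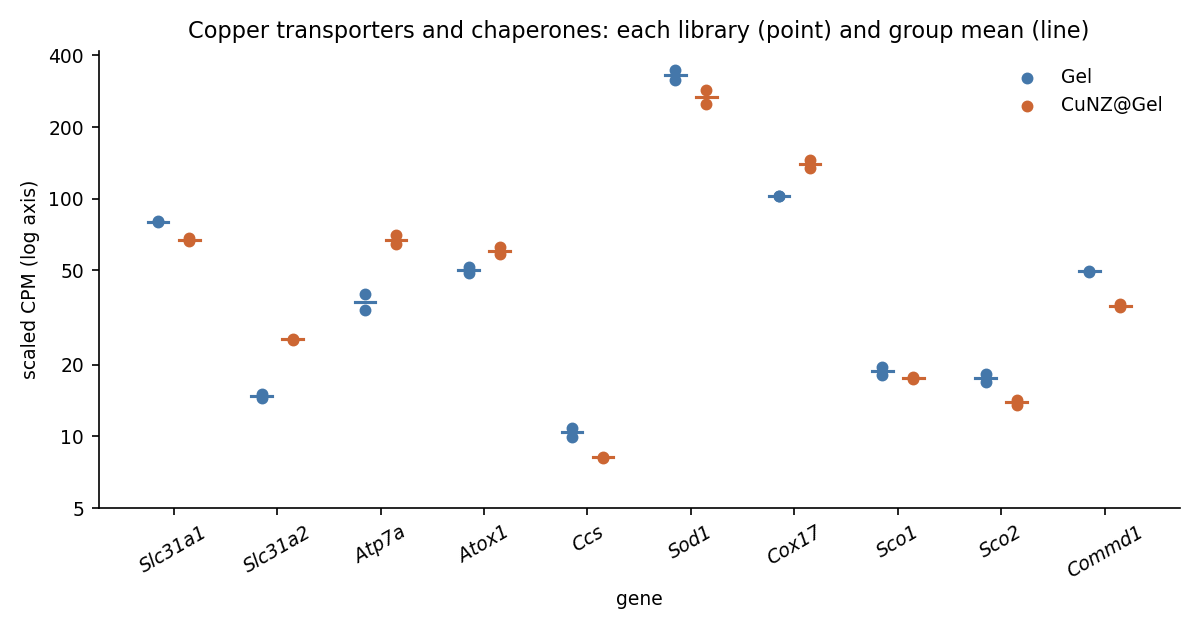
Scaled CPM on a log axis for each of the 10 genes, with 1 point per library, a line at the group mean, and blue for Gel and orange for CuNZ@Gel. The CuNZ@Gel points lie above the Gel points for Slc31a2, Atp7a, Atox1 and Cox17 and below them for the other 6 genes.

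The copper exporter Atp7a rose. It encodes the ATPase that pumps copper into the Golgi and, when copper is high, out of the cell or into phagosomes. Its level was 33.9 and 39.9 scaled CPM in Gel replicates 1 and 2, and 70.5 and 64.2 in CuNZ@Gel replicates 1 and 2. Both CuNZ@Gel libraries lay far above both Gel libraries, a 1.82-fold difference of the group means and a log2 change of 0.85 (SE 0.09, limma adjusted p = 4.27e-08). The Gel libraries also differed from each other by more than the CuNZ@Gel libraries did on the log2 scale, and leaving out Gel replicate 1 or Gel replicate 2 gave changes of 0.74 and 0.97. The sister exporter Atp7b, which serves liver and other tissues, was close to absent in these libraries, with 5 reads over the Gel pair and 7 over the CuNZ@Gel pair, and was not tested.

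The import genes moved in opposite directions. Slc31a1 encodes CTR1, the high-affinity copper importer of the plasma membrane, and its level was 79.8 and 80.2 scaled CPM in Gel replicates 1 and 2, and 66.2 and 68.0 in CuNZ@Gel replicates 1 and 2. The lower values were both in CuNZ@Gel, with a log2 change of -0.25 (SE 0.07, limma adjusted p = 0.00485). The reads behind these values were close to equal, at 2131 in the Gel pair and 2122 in the CuNZ@Gel pair, so the call rests on the scaling: with total reads only the change was -0.06 (adjusted p = 0.448). Slc31a2 encodes CTR2, a related protein of endosomes and lysosomes that is known to modulate CTR1 and to help release stored copper. Its level was 15.1 and 14.5 scaled CPM in Gel replicates 1 and 2, and 25.5 and 25.7 in CuNZ@Gel replicates 1 and 2. Replicates agreed closely within both groups, and the CuNZ@Gel level was 1.73-fold that of Gel, with a log2 change of 0.75 (SE 0.11, limma adjusted p = 4.14e-06). The pair lies on chromosome 4 in the same orientation.

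Ratios within a library do not depend on how libraries are scaled. They are not ratios of molecules, since reads were not divided by transcript length. Atp7a reads stood at 0.425 and 0.497 of Slc31a1 reads in the Gel libraries and at 1.06 and 0.944 in the CuNZ@Gel libraries, so that exporter and importer reads became about equal. The log2 ratio was 1.12 higher in CuNZ@Gel (Gel mean -1.12 ± 0.16, CuNZ@Gel mean 0.00 ± 0.123, SD of 2 libraries each, exact two-sided permutation p = 0.333). The Slc31a1 to Slc31a2 ratio went from 5.27 and 5.54 to 2.59 and 2.65, a log2 difference of -1.04 that was many times the spread within a group (SD 0.0511 and 0.0206, exact permutation p = 0.333). With 2 libraries against 2, 0.333 is the smallest p that this test can give, and none of the 5 ratios can pass; adjusted over the 5, it was 0.417.

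**Figure D2:**
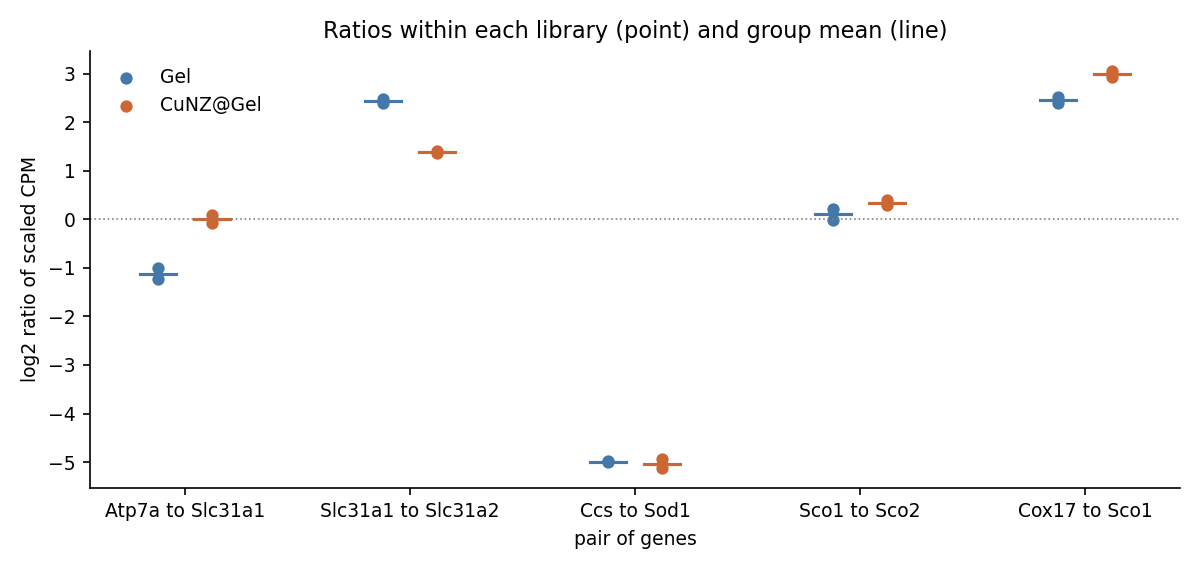
Log2 ratio of scaled CPM for 5 gene pairs, with 1 point per library, a line at the group mean, and blue for Gel and orange for CuNZ@Gel. The groups separate for Atp7a to Slc31a1 (difference 1.12), Slc31a1 to Slc31a2 (difference -1.04), Cox17 to Sco1 (difference 0.54) and Sco1 to Sco2 (difference 0.24), and overlap for Ccs to Sod1.

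The chaperone of the secretory route was raised, as was the exporter. Atox1 encodes the small protein that hands copper to ATP7A and ATP7B, and its level was 51.6 and 48.5 scaled CPM in Gel replicates 1 and 2, and 58.5 and 62.5 in CuNZ@Gel replicates 1 and 2. Every CuNZ@Gel value was above every Gel value. After correction of transcript length and GC content, the log2 change was 0.77, against 0.58 for Atp7a. In the deposited scaling the change was less than for Atp7a: a log2 change of 0.27 (SE 0.08, limma adjusted p = 0.00587), a 1.21-fold difference. The call was lost without Gel replicate 2 (0.23, adjusted p = 0.0711) and held in the other 3 fits with a library left out.

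The cytosolic superoxide dismutase and its chaperone were lower in the deposited scaling. They were not after correction of principal transcript length and GC content, where Sod1 was at 0.07 (limma adjusted p = 0.245) and Ccs at 0.05 (0.759). With the longest transcript in that correction, Sod1 was at -0.39 (limma adjusted p = 3.49e-05) and Ccs at 0.02 (0.902). Sod1, the copper and zinc enzyme that turns superoxide into peroxide, was at 347 and 315 scaled CPM in Gel replicates 1 and 2, and 249 and 286 in CuNZ@Gel replicates 1 and 2. The replicates of each group were some way apart, without overlap between the groups, and the change was small: a log2 change of -0.31 (SE 0.07, limma adjusted p = 0.000561), or 0.808 of the Gel level. Ccs, the chaperone that inserts copper into SOD1, was at 10.9 and 9.97 scaled CPM in Gel replicates 1 and 2, and 8.13 and 8.19 in CuNZ@Gel replicates 1 and 2. Its log2 change of -0.32 (SE 0.14, limma adjusted p = 0.0496) was at the edge of the threshold, on 278 and 258 reads per group. The call for Ccs was lost with any 1 of the 4 libraries left out, where the change was -0.37 to -0.26 and the adjusted p 0.0649 to 0.219. Scaled by total reads only, Sod1 and Ccs were at -0.12 and -0.15 and neither passed, and without the filter on low values Sod1 was at an adjusted p of 0.0624. The Ccs to Sod1 ratio was 0.0313 and 0.0317 in Gel and 0.0326 and 0.0287 in CuNZ@Gel. It overlapped between the groups, with a log2 difference of -0.04 (exact permutation p = 1.0).

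The mitochondrial chaperones did not move as a unit. Cox17, which carries copper in the intermembrane space and passes it to SCO1 and COX11, was at 103 and 103 scaled CPM in Gel replicates 1 and 2, and 134 and 146 in CuNZ@Gel replicates 1 and 2. The Gel pair was almost identical and both CuNZ@Gel libraries were higher, with a log2 change of 0.44 (SE 0.07, limma adjusted p = 9.07e-06) and a 1.36-fold difference. Sco1, which receives that copper and helps to insert it into oxidase subunit COX2, was at 18.1 and 19.6 scaled CPM in Gel replicates 1 and 2, and 17.8 and 17.5 in CuNZ@Gel replicates 1 and 2. Its change of -0.09 did not pass (95% interval -0.33 to 0.15, limma adjusted p = 0.492), so that neither a small fall nor a small rise can be told from none. Sco2, its paralog with a similar task, was at 18.3 and 16.9 scaled CPM in Gel replicates 1 and 2, and 13.5 and 14.3 in CuNZ@Gel replicates 1 and 2. Both CuNZ@Gel values were below both Gel values, with a log2 change of -0.32 (SE 0.12, limma adjusted p = 0.0241). The call was lost without Gel replicate 1 (-0.27, adjusted p = 0.142) and without CuNZ@Gel replicate 1 (-0.28, adjusted p = 0.0975), and with total reads only (-0.14, adjusted p = 0.307).

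Reads of Cox17 stood at 5.71 and 5.23 times those of Sco1 in Gel and at 7.54 and 8.34 times in CuNZ@Gel, a log2 difference of 0.54 (exact permutation p = 0.333). Sco1 to Sco2 went from 0.993 and 1.16 to 1.31 and 1.22, a log2 difference of 0.24 (exact permutation p = 0.333) that turned to -0.18 when length and GC content were corrected for. The value of Sco2 is uncertain, because its exons share 829 bases with Ncaph2 on the opposite strand and 856 bases with Tymp on the same strand in GENCODE vM21, and the use of strand in counting is not given in the sources used here. Ncaph2, a condensin subunit, was at 117 and 116 scaled CPM in Gel and 62.6 and 69.9 in CuNZ@Gel; its part in the Sco2 value was not tested. Tymp was at most 0.512 scaled CPM.

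Commd1, a scaffold protein that binds ATP7B and recycles copper ATPases from endosomes, was at 49.7 and 49.1 scaled CPM in Gel replicates 1 and 2, and 34.9 and 36.0 in CuNZ@Gel replicates 1 and 2. The replicates differed little, both CuNZ@Gel libraries were lower, and the change was the strongest fall among the 10 genes: a log2 change of -0.47 (SE 0.09, limma adjusted p = 6.15e-05), or 0.718 of the Gel level. The gene holds 412 exonic bases in common with Zrsr1 on the opposite strand and 294 with Gm28048, so its level is uncertain. Sod1 has a processed pseudogene, Gm8566, with 97.8% identity over 465 bases, and Cox17 shares 257 bases with the annotated gene Gm21987, so their levels carry the same reservation.

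The principal transcripts of Cox17, Atox1 and Sod1 are short, at 444, 541 and 641 bases, and over all tested genes the log2 change went with log2 transcript length (Pearson r = 0.298 across genes, which are not independent replicates). Each library was therefore also corrected for the length and GC content of the principal transcript. Of the 10 genes, 4 were then raised and 2 lowered, against 65.8% of all genes called, 30.2% raised and 35.6% lowered. Slc31a2, Atp7a, Atox1, Cox17, Slc31a1 and Commd1 kept their direction and passed the test, at 0.88, 0.58, 0.77, 0.76, -0.43 and -0.70. Sco2, like Sod1 and Ccs, did not pass and changed sign, at 0.09 (adjusted p = 0.497). The assigned length matters for genes with both short and long transcripts. With the longest transcript in place of the principal one, 3970 in place of 641 bases for Sod1 and 3690 in place of 444 for Cox17, the corrected changes were -0.39 (adjusted p = 3.49e-05) and 0.37.

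**Figure D3:**
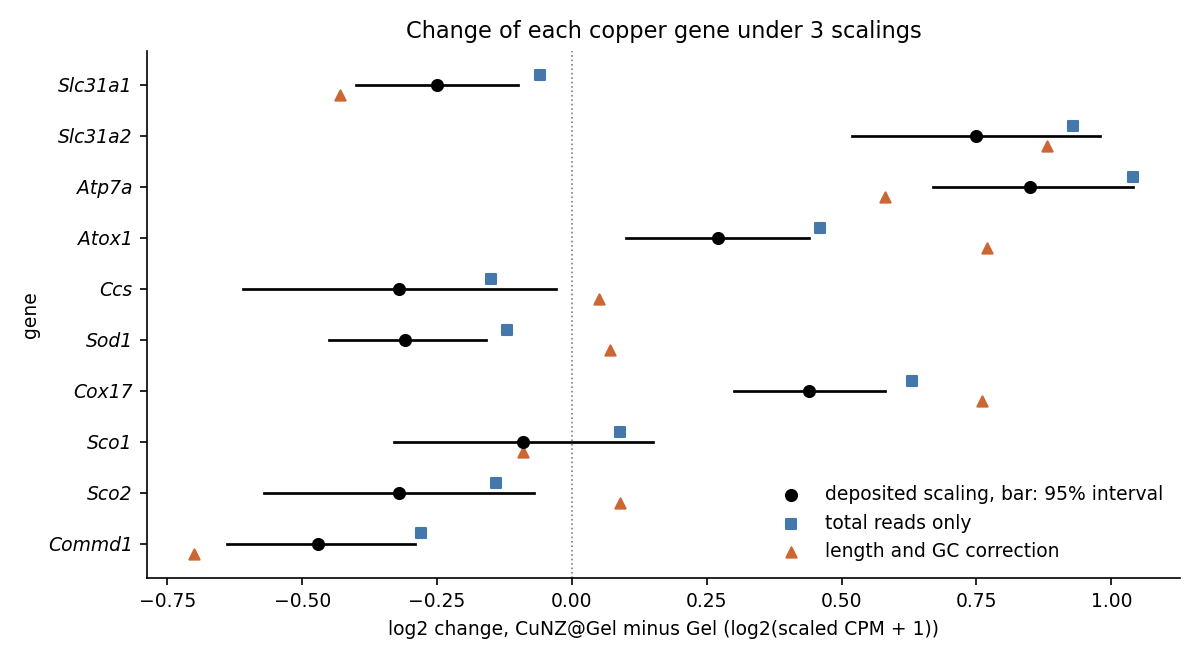
Log2 change of each gene, CuNZ@Gel minus Gel, from the deposited scaling with its 95% interval (black), with libraries scaled by total reads only (blue squares) and with transcript length and GC content adjusted for (orange triangles). Atp7a, Slc31a2, Cox17 and Atox1 lie above 0 and Commd1 and Slc31a1 below 0 under all 3, while Sod1, Ccs, Sco2 and Sco1 lie on both sides of 0.

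Further lists of copper-related genes, also chosen with earlier results of these data known, were read in the same fit. Their counts are therefore no test against the shares of all genes. Genes named from them passed an adjusted p of 0.05 by limma, unless said to be untested or given with a p above it. Other copper transport and binding genes moved both ways, with 3 of 9 tested genes raised, 3 lowered and a median of 0.00, close to the 32.2% raised and 34.8% lowered over all tested genes. App, the amyloid precursor protein, which binds copper, rose from a mean of 173 ± 0.85 scaled CPM to 343 ± 1.18 (SD of 2 libraries, here and in what follows), a log2 change of 0.99. Ap1s1, a subunit of the adaptor that sorts copper ATPases, rose by 0.79, and Slc11a2, the divalent metal transporter DMT1, by 0.44. Slc25a3, the carrier that brings phosphate and copper into the mitochondrial matrix, fell from a mean of 491 ± 1.45 scaled CPM to 332 ± 19.2, a log2 change of -0.56. Slc46a3, a transporter of the lysosomal membrane, changed by -1.02 and Cutc, a copper-binding protein, by -0.67. With length and GC corrected, 3 rose and 5 fell, beside 30.2% and 35.6% of all genes.

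Further assembly factors that handle copper or the copper-bearing subunits of cytochrome oxidase fell for 6 of 10 genes and rose for none, beside 34.8% and 32.2% of all tested genes, with a median of -0.37 against -0.03 over all genes. Cmc1 and Cmc2, small proteins of oxidase biogenesis, fell from a mean of 44.1 ± 0.685 scaled CPM to 24.6 ± 1.22 and from a mean of 26.7 ± 0.718 scaled CPM to 15.9 ± 1.51, log2 changes of -0.82 and -0.71. Tmem177 and Cox20, which accompany subunit COX2, changed by -0.93 and -0.51. Cox16 and Coa3, also assembly factors, changed by -0.36 and -0.38. Cox11, which receives copper from COX17 for subunit COX1, was at 10.5 ± 0.638 and 10.0 ± 1.25 scaled CPM and did not pass (-0.07, limma adjusted p = 0.682). The rest of the list, Cox19, Coa6 and Chchd7, did not pass either. Their changes were 0.08, 0.21 and -0.14 (limma adjusted p = 0.627, 0.233 and 0.353). With length and GC corrected, 1 gene of the list rose and 4 fell, beside 30.2% and 35.6% of all genes, with a median of -0.14. With total reads only, 1 rose and 4 fell, beside 43.4% and 24.7% of all genes. The median was then -0.19, against 0.15 over all genes.

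Nuclear subunits of the oxidase itself were lower for 7 of 10 genes and higher for 2, where 34.8% and 32.2% of all tested genes were, with a median change of -0.25. Cox4i1 and Cox5b fell from a mean of 586 ± 23.3 scaled CPM to 379 ± 35.9 and from a mean of 249 ± 21.2 scaled CPM to 160 ± 14.3, and Cox7c and Cox6a1 changed by -0.40 and -0.28. Cox7a2 and Cox7b rose by 0.41 and 0.31. This list depended on the processing: with length and GC corrected, 6 rose and 2 fell, with a median of 0.18. Without CuNZ@Gel replicate 1 the median was -0.15, against -0.05 over all genes. With total reads only, 3 were raised and 3 lowered. Over all genes the correction gave 30.2% raised and 35.6% lowered, and total reads only 43.4% and 24.7%. Of the mitochondrially encoded subunits, COX1 rose from a mean of 14900 ± 1260 scaled CPM to 19500 ± 1440, a log2 change of 0.39, and COX2, which takes copper from SCO1 and SCO2, was at 0.13 (limma adjusted p = 0.168). The COX1 call was lost without Gel replicate 1.

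Partners of Commd1 in the COMMD and CCC complexes, which sort membrane proteins from endosomes, rose for 4 of 16 genes and fell for 6, near the 32.2% and 34.8% of all tested genes, with a median change of -0.04. Ccdc22, a core subunit, fell from a mean of 90.5 ± 1.57 scaled CPM to 50.6 ± 3.34, a log2 change of -0.83, while its partner Ccdc93 rose by 0.42. Commd9 fell (-0.64) and Commd3 rose (0.39). Dennd10, a further subunit, rose by 0.66. Xiap, a ubiquitin ligase that acts on COMMD1 and CCS, rose from a mean of 71.8 ± 6.2 scaled CPM to 104 ± 8.57, a log2 change of 0.53. Scaled by total reads alone, 8 of the 16 were raised and 4 lowered, beside 43.4% and 24.7% of all genes.

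Among enzymes that use copper, 4 of 15 were expressed enough to be tested, and 6 were listed at 0 in every library. Pam, which amidates peptide hormones, rose from a mean of 41.7 ± 2.03 scaled CPM to 104 ± 2.1, a 2.48-fold difference. Cp, the ferroxidase ceruloplasmin, fell from a mean of 55.1 ± 1.35 scaled CPM to 25.7 ± 1.22, a log2 change of -1.07. Aoc2, a copper amine oxidase, rose by 0.84, and Loxl3, of the lysyl oxidase family, changed by -0.37 (limma adjusted p = 0.044); the Loxl3 call was lost with any 1 library left out. The metal-storing metallothioneins Mt1 and Mt2 and their factor Mtf1 were the 3 tested genes of their list of 5. All 3 were raised, by 1.53, 1.48 and 0.54, beside 32.2% of all tested genes. Mt3, with 0 reads over the Gel pair and 6 over the CuNZ@Gel pair, and Mt4, with 0 reads throughout, were not tested. With length and GC corrected, Mt1 and Mt2 were raised and Mtf1 did not pass. Steap3, a metalloreductase of endosomes, was at 0.28 (limma adjusted p = 0.046), and this call too was lost with any 1 library left out.

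**Figure D4:**
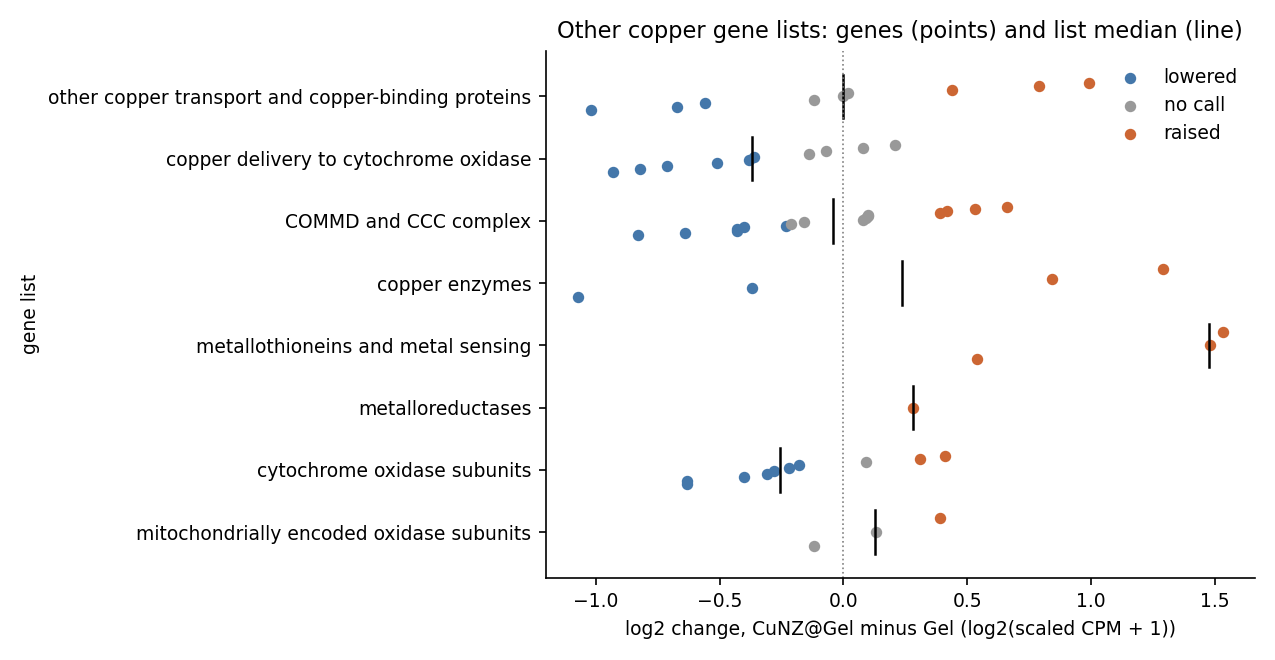
Log2 change, CuNZ@Gel minus Gel, of the tested genes in 8 further lists of copper-related genes, with 1 point per gene (orange raised, blue lowered, grey not past the test) and a black line at the list median. The assembly list for cytochrome oxidase has no raised gene (median -0.37), and the metallothionein list has no lowered gene.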

How the data were processed

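RAW264.7 cells gave 4 libraries, 2 labelled Gel and 2 labelled CuNZ@Gel, each with 1 deposited table of log2 values for 40213 gene symbols. The submitters' processing notes name GATK, fastp, STAR, Salmon and build GRCm39; their versions and roles, the annotation, strand use and normalization are not stated there. From the deposited values, each log2 value is log2(x + 1), x being CPM divided by 1 further factor per library (0.936 to 1.07). Of the low values, 92.6% to 93.5% were whole multiples of 1 step within 0.02 reads, and dividing by that step gave read numbers; the floor of 3 reads lies at 0.189 to 0.234 scaled CPM. This covers counting error only. Genes with at least 1 scaled CPM in 2 libraries entered a linear model in limma 3.58.1 under R 4.3.3 (variance trend, group alone, all 4 libraries, Benjamini-Hochberg adjustment over all tested genes, threshold 0.05). Ratios of 2 genes were tested with the exact two-sided permutation test of scipy 1.17.1. Transcript length and GC content came from GENCODE vM21 (build GRCm38, properties only), with a value for 94.1% of tested genes, and were removed from each library by natural splines with 4 degrees of freedom. The procedure was also run on simulated counts with far fewer changed genes than here, which does not show the error rate in these data. Alternatives were other scalings, pseudocounts and filters, limma-voom on the recovered reads, the correction, a replicate block and each library left out. The genes and lists were chosen with earlier results of these data known. Named are all 10 members, up to 6 genes of each further list with the smallest p past the threshold, and a few fixed anchor genes. The remaining genes of the oxidase assembly and metallothionein lists are named as well. A further marker list is not reported here.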

Additional observations from a re-analysis of the deposited data

How the results depend on the processing

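Under 16 alternatives Slc31a2, Atp7a, Cox17 and Commd1 kept their direction and call, at 0.72 to 0.93, 0.58 to 1.04, 0.37 to 0.76 and -0.70 to -0.28, and Sco1 passed under none (-0.15 to 0.09). Slc31a1 lost its call with total reads only (-0.06), and Atox1 without Gel replicate 2 (0.23; 0.22 to 0.32 with 1 library left out). Sod1 and Sco2 lost theirs with total reads only (-0.12 and -0.14) and with no filter (-0.31 and -0.32), and with 1 library left out Sco2 was at -0.37 to -0.27. Ccs lost its call with relative log expression factors (-0.30), upper-quartile factors (-0.29), total reads only (-0.15), a pseudocount of 0.1 (-0.35), no filter (-0.32), limma-voom (-0.35) and the replicate block (-0.32), and was at -0.37 to -0.26 with 1 library left out. After the length and GC correction, with or without the replicate block, Ccs, Sod1 and Sco2 were at 0.05, 0.07 and 0.09, and with the longest transcript Ccs and Sco2 were at 0.02 and 0.05. Of the 10 genes, 5 were lowered by the main test (34.8% of all genes) and 1 with total reads only (24.7% of all genes). With no filter 2 were lowered, beside 3388 of 19581 genes. After the correction 2 were lowered (35.6% of all genes), and also 2 with the replicate block (3811 of 10901 genes). With the longest transcript 3 were lowered, beside 3869 of 10901 genes. No excess or lack is read from these counts. Over the alternatives that kept all 4 libraries, the limma adjusted p ran from 1.65e-07 to 0.448 for Slc31a1 and 6.22e-19 to 0.0342 for Atox1. It ran from 0.0375 to 0.902 for Ccs and 2.99e-12 to 0.342 for Sod1. For Sco1 it was 0.464 to 0.635 and for Sco2 0.0113 to 0.695. Each lowest value came from a fit with a replicate block, where few degrees of freedom remain and the variance is largely pooled over genes. For Sco1 the fit with no filter also gave a limma adjusted p of 0.464. For Atp7a the block raised the SE from 0.0902 to 0.104 at a change of 0.85. Its limma adjusted p nevertheless fell from 4.27e-08 to 1.87e-15. The ratio differences were moved by the correction to -1.31 (Slc31a1 to Slc31a2) and 0.85 (Cox17 to Sco1) and turned to -0.18 (Sco1 to Sco2); Ccs to Sod1 ranged from -0.14 to 0.05 with 1 library left out.

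In the further lists, total reads only gave 8 raised COMMD and CCC genes, 1 raised oxidase assembly factor, 1 lowered copper enzyme, 3 lowered oxidase subunits and 2 raised mitochondrially encoded subunits. No filter gave 1 lowered copper enzyme, 4 lowered oxidase subunits, 0 raised metalloreductases and 0 raised mitochondrially encoded subunits. The correction gave 5 lowered transport and binding genes, 1 raised assembly factor, 6 raised and 2 lowered oxidase subunits and 2 raised mitochondrially encoded ones, and together with the replicate block 1, 6, 2 and 2 for the last 4 counts. With the longest transcript 2 COMMD and CCC genes, 1 assembly factor, 5 oxidase subunits, 0 metalloreductases and 2 mitochondrially encoded subunits were raised. Relative log expression factors, upper-quartile factors, a pseudocount of 0.1 and limma-voom each gave 1 lowered copper enzyme. Over all genes these fits lowered, in that order, 3880 of 11588, 3798 of 11579, 3984 of 11588 and 4024 of 11588. Limma-voom gave 2 raised mitochondrially encoded subunits, beside 3703 of 11588 genes. The filter at 5 scaled CPM gave 1 raised copper enzyme, beside 3205 of 9897 genes. With 1 library left out, 1 copper enzyme and 4 to 7 oxidase subunits were lowered, and 0 metalloreductases and 0 to 1 mitochondrially encoded subunits were raised. Each fit with 1 library left out also raised fewer genes, and lowered fewer, over all genes than the main fit did. No loss particular to these lists is therefore read from its counts. Over all genes, 43.4% were raised and 24.7% lowered with total reads only, and 30.2% and 35.6% after the correction. With no filter 3550 of 19581 genes were raised and 3388 lowered. With the longest transcript 3329 of 10901 were raised and 3869 lowered. The cause of the differences between settings was not tested.

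Same-numbered libraries did not deviate together (r = -0.116 across genes), so the numbers are not taken to pair the libraries. With the replicate block 3589 genes were raised and 3900 lowered, against 3737 and 4033 without it; it ended the calls of Ccs (adjusted p = 0.0605) and Steap3, leaving 0 raised metalloreductases, and left 6 oxidase subunits lowered. With the CuNZ@Gel numbers crossed, a choice made after seeing the data, 4030 were raised and 4340 lowered, with 2 mitochondrially encoded subunits raised and 1 lowered. The longest-transcript correction and the block with correction were also added after seeing the data. Fits with 1 library in a group assume that it varies like the other group. Those fits and the fits with a replicate block lean on variance pooled over genes, so a call kept in them is not added replicate evidence.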
